A study of Mus musculus with 21 samples.

Results

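The enzymes of glycolysis and of the TCA cycle were followed at the mRNA level in lymphoid progenitors (LPs). The set holds 37 genes out of the 55421 gene identifiers of the QuantSeq table, chosen by name: 16 of glycolysis, 4 of the pyruvate dehydrogenase complex and 17 of the TCA cycle. The names matched 38 table rows, because *Aldoa* has a second identifier that was at 0 in every library and is left out below. Of the 37 members, 35 had a mean above 1 TPM over the 15 libraries and entered the tests. *Aldoc* and *Ldhb* did not.

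Glycolysis splits glucose in the cytosol into pyruvate and yields ATP and NADH, and lactate dehydrogenase turns pyruvate into lactate. The pyruvate dehydrogenase complex carries pyruvate into the mitochondria's carbon flow as acetyl-CoA, which the TCA cycle oxidizes to feed the respiratory chain and to supply precursors for biosynthesis. Dividing lymphoid cells are known for high use of glucose with release of lactate, while resting lymphocytes rely more on mitochondrial oxidation.

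The cells were *Ebf1*-deficient LPs, a C57BL6/J mouse line kept on OP9 stromal cells with SCF, IL-7 and Flt3L, which carried Cas9-GFP in every condition, the control included. A pool of 2 sgRNAs was introduced against luciferase (sgCont) or against *Lmo2*, *Zbtb1*, *Cbfa2t2* or *Cbfa2t3* (sgLmo2, sgZbtb1, sgCbfa2t2 and sgCbfa2t3), and GFP+hNGFR+ cells were sorted 5 days later, so that each condition is a pool of transduced cells. QuantSeq 3′ mRNA sequencing was done on 3 replicates of each of these 5 conditions, and ChIP-seq for Zbtb1 and for Cbfa2t3 in LPs gave 1 list of reproducible peaks per factor. In bulk RNA, fewer cells of a kind and less RNA per cell cannot be told apart.

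The libraries held 1705416 to 2095447 reads, so that 3 reads, the limit a count of 0 allows, came to 1.43 to 1.76 TPM (counting error only). TPM here means reads scaled to a fixed library total, and since QuantSeq gives 1 read position per transcript end, levels of different genes can be set side by side without correction for length. Reads of *Zbtb1* were higher under its own sgRNA (94.4, 113.3 and 109.0 TPM) than in sgCont (55.7 to 66.6 TPM), and those of *Cbfa2t3* and *Cbfa2t2* likewise, while *Lmo2* overlapped sgCont, so a condition named below stands for the libraries that carry its label. Reads of *Ebf1* were at 217.2 to 336.3 TPM by condition. A 3′ tag outside the edited or deleted part of a gene checks neither. All 12 lymphoid progenitor markers examined had a median above 1 TPM, with *Flt3* at a median of 232.2 TPM, while 10 OP9 stroma markers summed to 1.47 to 12.4 TPM and *Col3a1*, *Lum*, *Dcn* and *Postn* were at 0 in all libraries.

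The enzyme mRNAs were abundant. The median member had a mean of 108.4 TPM over the 15 libraries, against 25.4 TPM for the median of the 11554 genes tested, and 19 of the 37 members were above 100 TPM. The highest was *Ldha*, the lactate dehydrogenase subunit that favours lactate formation, at a mean of 834 TPM (range 729.6 to 922). *Pkm*, the pyruvate kinase of the last ATP-yielding step, followed at 766 TPM, and *Aldoa*, the aldolase that splits fructose bisphosphate, at 692 TPM. The ranges of these 3 members over the libraries overlapped. *Mdh2*, the mitochondrial malate dehydrogenase, was the highest member of the TCA cycle at 465 TPM. Its range of 388 to 564 TPM lay above that of every other TCA cycle member. The pyruvate dehydrogenase subunits were between 45.7 TPM for *Dlat* and 118 TPM for *Pdha1*.

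**Figure D1:**
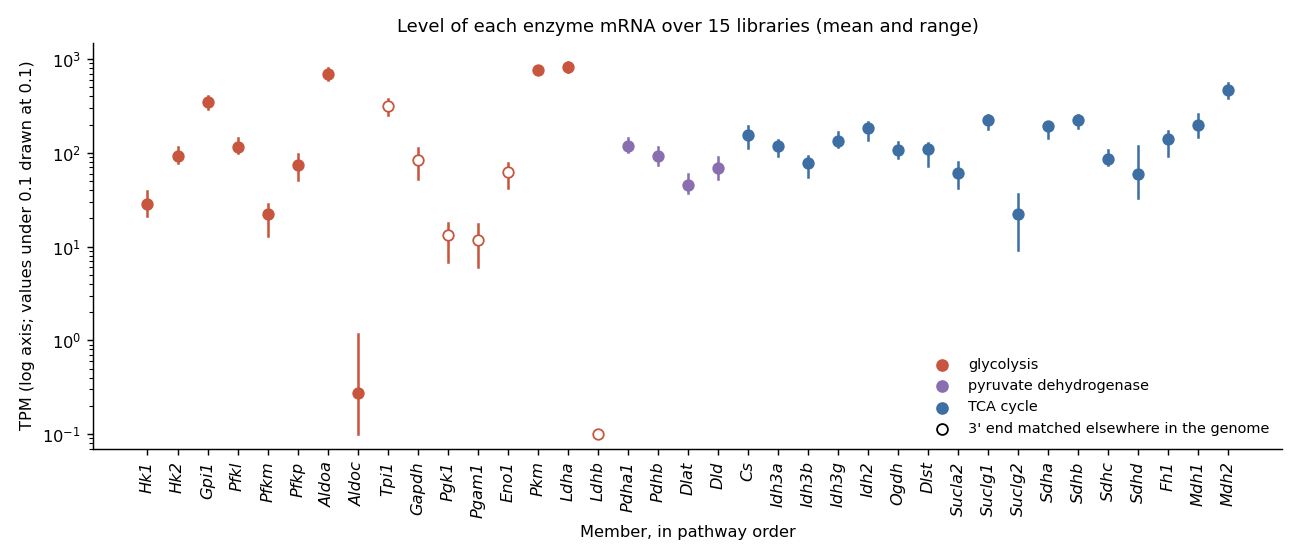
Mean TPM of each of the 37 members over 15 libraries (log axis), with the lowest and highest library as a line, in pathway order. Open circles mark the 6 members whose last 300 transcript bases match another place in the genome, and *Ldhb*, at 0 in every library, is drawn at the lower edge.

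Low values within glycolysis fell on particular genes. *Pgk1* and *Pgam1*, which encode phosphoglycerate kinase and mutase, had means of 13.3 and 11.8 TPM, and *Gapdh* and *Eno1*, on either side of them in the pathway, had 83.9 and 62.3 TPM. When the last 300 bases of a transcript model of each member were aligned to GRCm38, other places with at least 97% identity over at least 75 bases were found for 6 members. There were 36 such places for *Gapdh*, 4 for *Pgam1*, 3 for *Pgk1*, 2 for *Eno1* and 1 each for *Tpi1* and *Ldhb*, which covered 100% of the end of *Gapdh*, *Pgk1* and *Pgam1*, 99.0% for *Eno1*, 98.3% for *Ldhb* and 57.0% for *Tpi1*. The other 31 members had none. A 75-base read from such an end has more than 1 possible origin, and how reads with several origins were counted is not given in the sources used here, so the levels of these 6 genes are uncertain. Their part in the low values was not tested.

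Summed over members, the libraries labelled sgZbtb1 had on average the least glycolysis mRNA and the most TCA cycle mRNA. The 16 glycolysis members added up to 3626 ± 157 TPM in sgCont and 3149 ± 112 TPM in sgZbtb1 (SD, n = 3 each), and the sgZbtb1 libraries (3026 to 3244 TPM) lay under the sgCont libraries (3453 to 3759.8 TPM). The 17 TCA cycle members added up to 2378 ± 32.6 TPM in sgCont and 2703 ± 60.8 TPM in sgZbtb1 (SD, n = 3 each), with all 3 sgZbtb1 libraries above all 3 of sgCont. The same held for sgCbfa2t2 (2447 to 2791 TPM) and sgCbfa2t3 (2514 to 2601 TPM), and the highest sgCbfa2t2 library lay above every sgZbtb1 library. Both sums thus moved apart while the sum of all 37 members stayed close, at 6312 ± 192 against 6194 ± 149.7 TPM. The ratio of the glycolysis to the TCA cycle sum was 1.52 ± 0.0509 in sgCont, 1.41 in sgLmo2 (libraries at 1.39 to 1.43), 1.37 ± 0.0566 in sgCbfa2t2, 1.33 ± 0.0684 in sgCbfa2t3 and 1.17 ± 0.0423 in sgZbtb1 (SD, n = 3 each). The 3 sgZbtb1 libraries, at 1.12 to 1.202, lay under the other 12, the lowest of which was at 1.26. Without the members whose 3′ ends match elsewhere, the glycolysis sum was still lower in sgZbtb1, at 2732 ± 84.6 against 3118 ± 166 TPM in sgCont. Without *Ldha*, *Pkm* and *Aldoa*, which make up most of it, it was 1032 ± 41.5 against 1221 ± 72.6 TPM. These sums are given as a description, with no test. The mitochondrially encoded mRNAs (8 examined, 3 at 0 in all libraries) went from a sum of 18549 ± 1061 TPM in sgCont to 14782 ± 979 TPM in sgZbtb1. The 6 B-cell markers went from 343 ± 32.3 to 218 ± 6.81 TPM (SD, n = 3 each). Means of the other conditions lay between, at 17136 and 299.9 TPM in sgLmo2, 16662 and 265.6 in sgCbfa2t2 and 16661 and 266.9 in sgCbfa2t3. Nearly all of the B-cell sum was *Ebf1*, and *Cd79a* and *Ms4a1* were at 0 in all libraries. Sums of the 6 T-cell markers, at 15.3 ± 2.98 and 9.25 ± 3.21 TPM, did not overlap between sgCont and sgZbtb1 either. Nearly all of the T-cell sum was *Lat*, and *Cd8a* was at 0 in all libraries. Sums of the 12 lymphoid progenitor markers, at 2148 ± 54.6 and 2344 ± 111 TPM, did not overlap between these conditions. The part of these marker and mitochondrial mRNAs in the enzyme values was not tested.

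**Figure D2:**
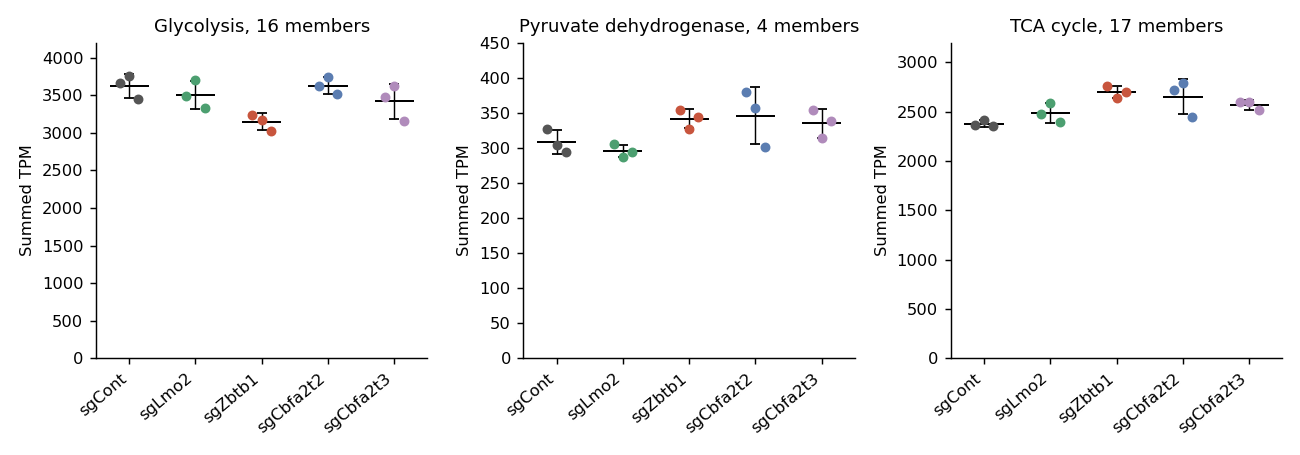
Summed TPM of the glycolysis, pyruvate dehydrogenase and TCA cycle members in each library (points, 3 per condition), with the mean (bar) and SD (whiskers), on axes that start at 0. The sgZbtb1 libraries are lowest for glycolysis on average and sgCont is lowest for the TCA cycle.

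To find which enzymes carried the difference, each gene was fitted with limma on log2(TPM + 1) over the 15 libraries together, and called at a Benjamini-Hochberg adjusted p under 0.05 over the 11554 genes. A log2 fold change on this scale understates the change of weakly expressed genes. In sgZbtb1 against sgCont, 5 of the 35 members (14.3%) were called, where 4.79% of all genes were. *Idh2*, *Suclg2* and *Mdh2* of the TCA cycle rose (8.57% of the members, against 1.85% of all genes), and *Gapdh* and *Aldoa* of glycolysis fell (5.71%, against 2.94% of all genes). At an unadjusted p under 0.05, 7 members were higher and 7 lower, 20.0% each, against 7.37% and 10.2% of all genes. The members are more abundant than the median gene, as given above, and no list of genes of equal abundance was compared. The 7 higher ones all belonged to the TCA cycle. Of the 7 lower ones, 6 belonged to glycolysis and the other was *Mdh1*. By sign alone, 12 of the 14 glycolysis members tested were lower, with a median log2 fold change of -0.20, 13 of the 17 TCA cycle members were higher, with a median of 0.19, and all 4 pyruvate dehydrogenase members were higher, with a median of 0.14. Over all genes, 46.7% were higher and the median was -0.028. Higher values of the TCA cycle and pyruvate dehydrogenase members were also seen in sgCbfa2t2 (13 of 17 and 4 of 4, medians 0.16 and 0.17) and in sgCbfa2t3 (14 of 17 and 4 of 4, medians 0.12 and 0.14), and 10 of the 14 glycolysis members were lower in sgCbfa2t3, while 48.6% of all genes were higher there and 50.7% in sgCbfa2t2. In sgLmo2, where 52.3% of all genes were higher, 12 of 17 TCA cycle members were higher and all 4 pyruvate dehydrogenase members lower, with a median of -0.054. These comparisons share the sgCont libraries. With median-of-ratios scaling in place of the library total, 11 of 14 glycolysis members were lower and 13 of 17 TCA cycle members higher. The groups did not overlap for 5 members that were higher (14.3%, against 10.1% of all genes) and 6 that were lower (17.1%, against 12.8%), shares near those of all genes.

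**Figure D3:**
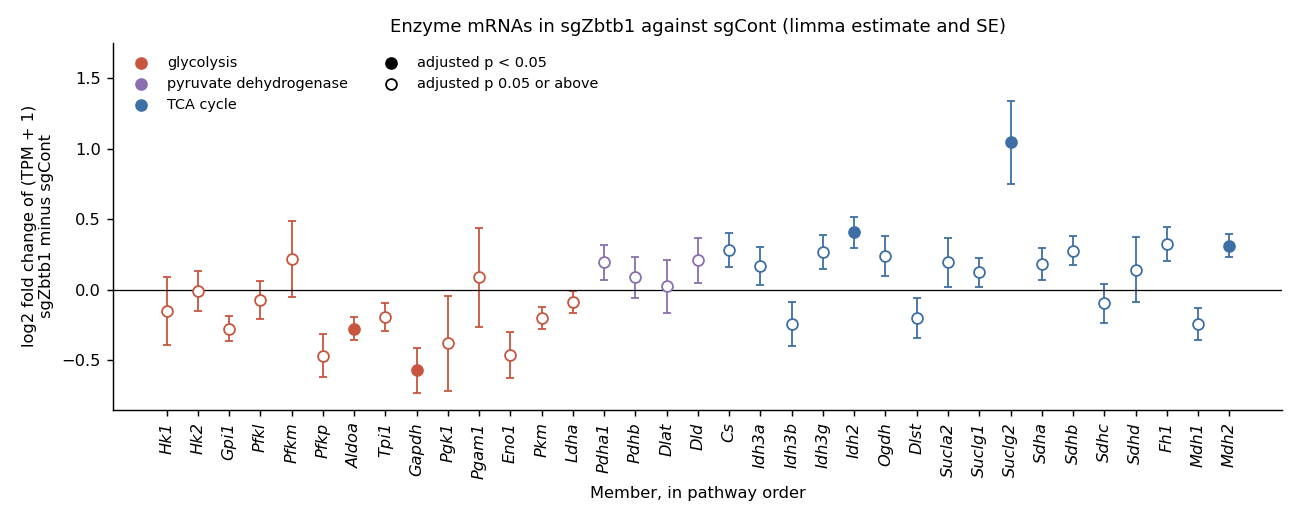
Log2 fold change of TPM + 1 in sgZbtb1 minus sgCont for the 35 members tested, in pathway order, as the limma estimate with its standard error. Filled circles are the 5 members with an adjusted p under 0.05. Most glycolysis members lie under 0 and most TCA cycle members above it.

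The preparatory steps of glycolysis begin with the hexokinases, which trap glucose in the cell. *Hk2* was at 77.8, 111 and 77.99 TPM in sgCont, 90.5, 97.8 and 98.6 in sgLmo2, 80.4, 95.1 and 86.4 in sgZbtb1, 89.9, 115 and 96.1 in sgCbfa2t2 and 79.4, 106 and 95.3 in sgCbfa2t3. *Hk1* was at 27.9, 38.8 and 22.9 TPM in sgCont, 36.2, 38.6 and 21.4 in sgLmo2, 25.7, 29.6 and 23.6 in sgZbtb1, 24.5, 34.8 and 28.02 in sgCbfa2t2 and 27.3, 29.1 and 23.3 in sgCbfa2t3. *Hk2* was above *Hk1* in every library, and the conditions overlapped for both. The interval of the sgZbtb1 difference of *Hk2* was -0.30 to 0.28 on the log2 scale (95%). *Gpi1*, the isomerase of glucose 6-phosphate, was at 409, 379.7 and 337 TPM in sgCont, 348, 374 and 362 in sgLmo2, 296, 311 and 319.7 in sgZbtb1, 362, 366 and 371 in sgCbfa2t2 and 325, 332 and 336 in sgCbfa2t3. The sgZbtb1 and sgCbfa2t3 libraries lay under all 3 of sgCont, with log2 fold changes of -0.28 (SE 0.089, limma adjusted p = 0.0549) and -0.18 (SE 0.089, limma adjusted p = 0.482), neither of which was called. Among the alternatives, the sgZbtb1 difference was called with DESeq2 (0.045), with genes above 10 TPM only (0.044), with the 6 libraries alone (0.0463) and without sgCont replicate 3 (0.0319). It was also called with a block for the replicate number, given at the end.

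Phosphofructokinase, which commits the sugar to glycolysis, is encoded by 3 genes. *Pfkp*, the platelet form, was at 70.3, 88.6 and 76.2 TPM in sgCont, 75.2, 97.3 and 89.3 in sgLmo2, 51.95, 64.1 and 53.03 in sgZbtb1, 63.9, 73.5 and 76.3 in sgCbfa2t2 and 83.6, 85.1 and 67.03 in sgCbfa2t3. Its 3 sgZbtb1 libraries lay under all 3 of sgCont, and the log2 fold change was -0.47 (SE 0.15, limma adjusted p = 0.0583). This was not called, but was without sgZbtb1 replicate 2 (0.0481) and with the replicate block. *Pfkl*, the liver form, was at 113, 144 and 99.7 TPM in sgCont, 118, 133 and 101 in sgLmo2, 101, 129.6 and 106 in sgZbtb1, 126, 105 and 114 in sgCbfa2t2 and 101, 118 and 128 in sgCbfa2t3. *Pfkm*, the muscle form, was at 24.4, 26.05 and 12.9 TPM in sgCont, 16.4, 21.02 and 20.8 in sgLmo2, 27.4, 21.04 and 23.1 in sgZbtb1, 28.7, 25.3 and 18.8 in sgCbfa2t2 and 24.7, 23.98 and 17.2 in sgCbfa2t3. Both overlapped with sgCont in every condition. The share of *Pfkp* in the summed mRNA of the 3 genes was 36.2% ± 3.66 in sgCont and 29.2% ± 0.539 in sgZbtb1 (SD, n = 3 each), and that of *Pfkl* 54.3% ± 1.41 and 58.2% ± 2.16.

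*Aldoa* was at 805, 806 and 662 TPM in sgCont, 702, 687 and 654 in sgLmo2, 663, 606 and 601 in sgZbtb1, 709, 729 and 659.8 in sgCbfa2t2 and 761, 690.3 and 641 in sgCbfa2t3. It fell in sgZbtb1, with a log2 fold change of -0.28 (SE 0.081, limma adjusted p = 0.0309), although replicate 3 of sgCont lay just under the highest sgZbtb1 library. The call was lost without sgCont replicate 1 or 2 or sgZbtb1 replicate 2 or 3, with adjusted p-values up to 0.185, and without sgCont replicate 3 the adjusted p was 0.00883. It was also lost with median-of-ratios size factors (0.0517), with edgeR (0.0546) and with all genes above 0 tested (0.117). *Aldoc*, the brain form, had at most 2 reads in a library and a mean of 0.275 TPM, so aldolase mRNA came almost entirely from *Aldoa*.

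*Gapdh*, the dehydrogenase that opens the energy-yielding part of glycolysis, was at 86.5, 76.4 and 99.7 TPM in sgCont, 94.99, 87.5 and 99.2 in sgLmo2, 63.1, 52.6 and 59.4 in sgZbtb1, 97.4, 114 and 75.4 in sgCbfa2t2 and 102, 93.6 and 55.9 in sgCbfa2t3. It fell in sgZbtb1, with a log2 fold change of -0.57 (SE 0.16, limma adjusted p = 0.0237), and no sgZbtb1 library reached the level of a sgCont library, while replicate 3 of sgCbfa2t3 was as low. The call was lost without sgCont replicate 1 or 3 or sgZbtb1 replicate 2 or 3, with adjusted p-values up to 0.158, with DESeq2 (0.0556) and with all genes above 0 tested (0.12). *Gapdh* is the member with the most matching places elsewhere in the genome, so this change is of reads whose origin is uncertain. *Eno1*, the enolase, was at 73.8, 62.5 and 78.6 TPM in sgCont, 50.9, 56.2 and 71.2 in sgLmo2, 55.9, 42.1 and 57.9 in sgZbtb1, 61.7, 66.3 and 72.9 in sgCbfa2t2 and 61.1, 65.1 and 58.7 in sgCbfa2t3. Its sgZbtb1 libraries were also under all of sgCont, with a log2 fold change of -0.46 (SE 0.16, limma adjusted p = 0.086) that was not called. *Pgam1* was at 9.87, 13.9 and 8.79 TPM in sgCont, 10.2, 16.1 and 6.03 in sgLmo2, 9.497, 14.3 and 10.8 in sgZbtb1, 17.6, 15.3 and 15.9 in sgCbfa2t2 and 7.51, 9.71 and 12.2 in sgCbfa2t3. These were 11 to 33 reads per library, and the sgCbfa2t2 libraries alone lay above sgCont, with a log2 fold change of 0.56 (SE 0.35, limma adjusted p = 0.657).

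At the end of the pathway, *Pkm* was at 837, 795 and 803 TPM in sgCont, 787, 776 and 725 in sgLmo2, 732, 689.9 and 697 in sgZbtb1, 808, 812 and 756 in sgCbfa2t2 and 771, 806 and 689.7 in sgCbfa2t3. The sgZbtb1 and sgLmo2 libraries lay under those of sgCont, with log2 fold changes of -0.20 (SE 0.076, limma adjusted p = 0.115) and -0.091 (SE 0.076, limma adjusted p = 0.93), neither of which was called. *Ldha* was at 790.4, 873 and 844 TPM in sgCont, 811, 922 and 742 in sgLmo2, 828, 803 and 729.6 in sgZbtb1, 913, 888 and 888 in sgCbfa2t2 and 817, 899 and 756 in sgCbfa2t3. The sgCbfa2t2 libraries lay above sgCont, with a log2 fold change of 0.10 (SE 0.079, limma adjusted p = 0.738), the other conditions overlapped with it, and the 95% interval of its sgZbtb1 difference, -0.25 to 0.07, leaves room for a small change either way. *Ldhb*, which favours the use of lactate, was listed at 0 in all 15 libraries, and since its 3′ end matches another place in the genome, no upper limit is given for it. *Tpi1* and *Pgk1* were at 325 ± 11.5 and 13.004 ± 4.68 TPM in sgCont against 285 ± 30.6 and 9.602 ± 3.02 TPM in sgZbtb1 (SD, n = 3 each). The sgZbtb1 libraries lay under sgCont for *Tpi1* and overlapped it for *Pgk1*, and neither was called.

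In the pyruvate dehydrogenase complex, which links both pathways, no subunit was called in any condition. *Pdha1*, for the E1 alpha subunit, was at 112 ± 7.73 TPM in sgCont and 129 ± 12.3 TPM in sgZbtb1 (SD, n = 3 each), without overlap and with a log2 fold change of 0.19 (SE 0.12, limma adjusted p = 0.449). *Pdhb*, *Dlat* and *Dld* overlapped between these groups, with log2 fold changes of 0.088, 0.023 and 0.21.

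The TCA cycle opens with citrate synthase. *Cs* was at 143, 155 and 113 TPM in sgCont, 180.4, 168 and 156 in sgLmo2, 192, 144 and 161 in sgZbtb1, 159, 146 and 142 in sgCbfa2t2 and 177, 147 and 156 in sgCbfa2t3. It lay above sgCont in all 3 sgLmo2 libraries, but no difference was called. *Idh2*, the mitochondrial NADP-dependent isocitrate dehydrogenase, was at 174, 152 and 137 TPM in sgCont, 178, 196 and 184 in sgLmo2, 202, 212 and 199 in sgZbtb1, 205, 185 and 182 in sgCbfa2t2 and 199.99, 185 and 157 in sgCbfa2t3. It rose in sgZbtb1, with a log2 fold change of 0.41 (SE 0.11, limma adjusted p = 0.016). The call was lost without sgCont replicate 2 or 3 or sgZbtb1 replicate 2, with adjusted p-values up to 0.14. The other conditions also had higher means than sgCont, with log2 fold changes of 0.27, 0.31 and 0.22 and no call, and against the 9 libraries of sgLmo2, sgCbfa2t2 and sgCbfa2t3 the sgZbtb1 value was only 0.14 (SE 0.09, limma adjusted p = 0.477). Of the NAD-dependent enzyme of the same step, *Idh3a* and *Idh3g* had log2 fold changes of 0.17 and 0.27 in sgZbtb1 and *Idh3b* of -0.25, none of them called. For *Ogdh* and *Dlst*, subunits of the oxoglutarate dehydrogenase complex, they were 0.24 and -0.20, again without a call.

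Succinyl-CoA ligase, the step that yields a nucleoside triphosphate, pairs a common subunit with one of 2 partners. *Suclg2*, the GTP-forming partner, was at 25.6, 9.26 and 11.1 TPM in sgCont, 18.7, 12.7 and 25.7 in sgLmo2, 36.9, 30.1 and 23.6 in sgZbtb1, 21.3, 31.5 and 22.7 in sgCbfa2t2 and 22.5, 19.98 and 19.9 in sgCbfa2t3. It rose in sgZbtb1 with the largest fold of any member in this comparison, a log2 fold change of 1.04 (SE 0.29, limma adjusted p = 0.0212), or 2.06-fold. Its means were also higher in sgLmo2, sgCbfa2t2 and sgCbfa2t3, with log2 fold changes of 0.37, 0.79 and 0.55 and no call, and against those 9 libraries the sgZbtb1 value was 0.47 (SE 0.24, limma adjusted p = 0.32). Replicate 1 of sgCont was above the lowest sgZbtb1 library, and with it left out the log2 fold change was 1.46. The call was lost without sgCont replicate 2 or 3 or sgZbtb1 replicate 1 or 2, with adjusted p-values up to 0.185, with DESeq2 (0.056) and with all genes above 0 tested (0.1). *Sucla2*, the ATP-forming partner, was at 65.04, 58.5 and 65.1 TPM in sgCont, 60.5, 53.8 and 42.2 in sgLmo2, 79.9, 74.6 and 62.4 in sgZbtb1, 64.9, 59.2 and 45.9 in sgCbfa2t2 and 72.9, 73.7 and 43.8 in sgCbfa2t3. The common subunit *Suclg1* was at 215, 189.8 and 222 TPM in sgCont, 248, 243 and 224 in sgLmo2, 223, 241 and 219 in sgZbtb1, 256, 240.04 and 218 in sgCbfa2t2 and 222, 227 and 179 in sgCbfa2t3. Neither was called, and *Suclg2* stayed the least abundant of the 3 in every library, with a share of 5.23% ± 2.71 in sgCont and 9.099% ± 1.59 in sgZbtb1 (SD, n = 3 each).

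Succinate dehydrogenase, which is also complex II of the respiratory chain, has 4 subunits. *Sdhd*, a membrane anchor, was at 65.6, 35.3 and 33.4 TPM in sgCont, 68.98, 80.7 and 47.1 in sgLmo2, 70.4, 32.99 and 45.2 in sgZbtb1, 61.2, 119 and 53.1 in sgCbfa2t2 and 42.4, 70.2 and 57.6 in sgCbfa2t3. It varied most among the members above 20 TPM, with 1 sgCbfa2t2 library at 118.8 TPM, and its highest log2 fold change, 0.76 (SE 0.23, limma adjusted p = 0.193), was not called. *Sdhb*, the iron-sulfur subunit, was at 199.5 ± 14.03 TPM in sgCont and 241 ± 7.26 TPM in sgZbtb1 (SD, n = 3 each) without overlap, a log2 fold change of 0.28 (SE 0.10, limma adjusted p = 0.103). *Sdha* and *Sdhc* had log2 fold changes of 0.18 and -0.096 in sgZbtb1, with overlapping libraries. *Fh1*, the fumarase, was at 127, 153 and 114 TPM in sgCont, 114, 123 and 92.03 in sgLmo2, 168, 152 and 171 in sgZbtb1, 146, 151 and 153 in sgCbfa2t2 and 149.6, 134 and 141 in sgCbfa2t3. It was lowest on average in sgLmo2 and highest in sgZbtb1, and sgCont lay between and overlapped both.

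The last step held opposite differences of a mitochondrial and a cytosolic enzyme. *Mdh2* was at 428, 446 and 441 TPM in sgCont, 414, 417 and 388 in sgLmo2, 530.2, 537 and 564 in sgZbtb1, 505, 479 and 454 in sgCbfa2t2 and 435, 461 and 471 in sgCbfa2t3. It rose in sgZbtb1, where all 3 libraries lay above the other 12, with a log2 fold change of 0.31 (SE 0.082, limma adjusted p = 0.0134) against sgCont. The call was lost without sgCont replicate 1 or sgZbtb1 replicate 3, with adjusted p-values of 0.054 and 0.0816. *Mdh1*, the cytosolic enzyme of the malate-aspartate shuttle, was at 157, 199.7 and 218 TPM in sgCont, 200.2, 234 and 204 in sgLmo2, 149, 152 and 181 in sgZbtb1, 222, 259 and 195 in sgCbfa2t2 and 199.99, 219.8 and 192 in sgCbfa2t3. It was not called against sgCont, at -0.24 (SE 0.11, limma adjusted p = 0.249), but was against the other gene-targeting sgRNAs, as given below. The share of *Mdh2* in the sum of both was 69.7% ± 3.17 in sgCont, 65.7% ± 1.68 in sgLmo2, 68.1% ± 2.77 in sgCbfa2t2, 69.1% ± 1.76 in sgCbfa2t3 and 77.2% ± 1.35 in sgZbtb1 (SD, n = 3 each).

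**Figure D4:**
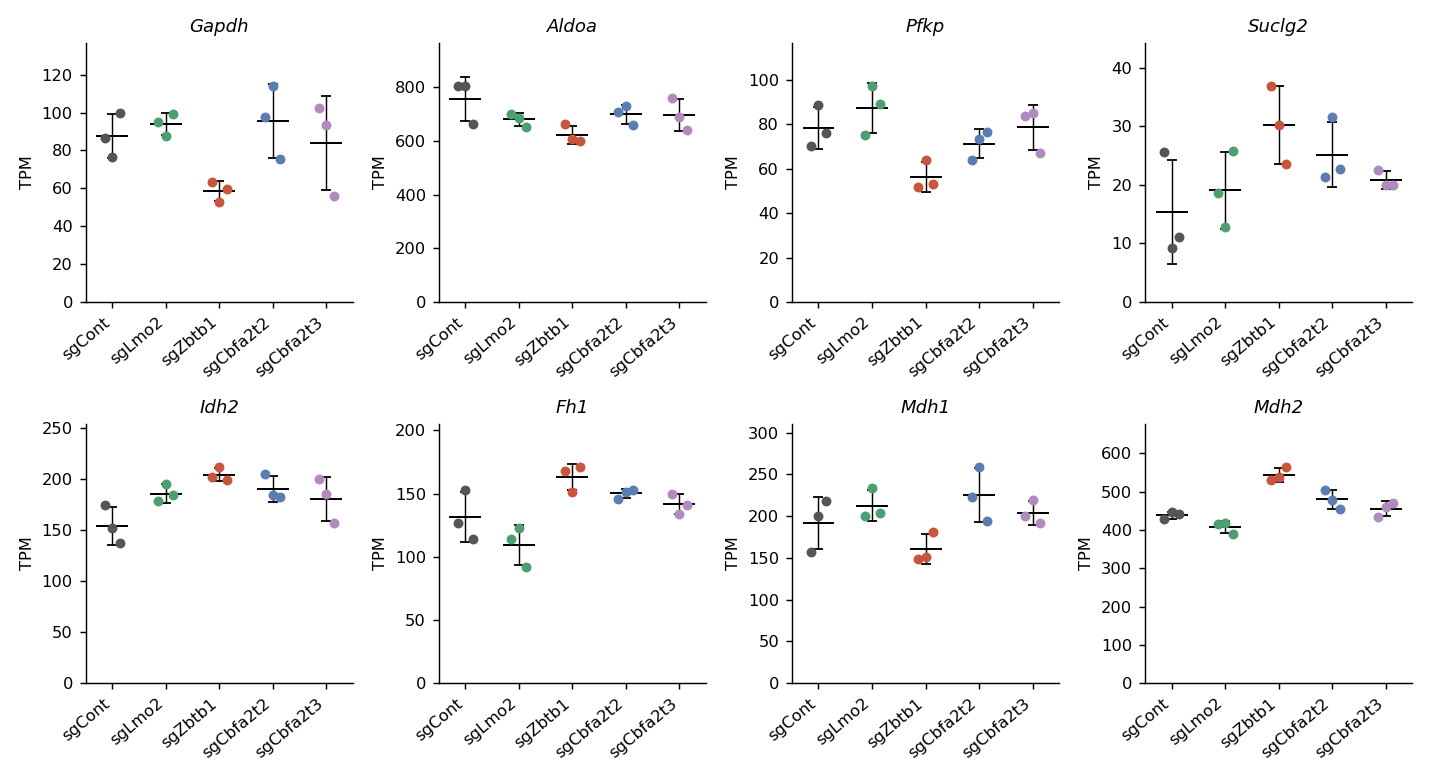
TPM in each library (points, 3 per condition), with mean and SD, for the 8 members called in any of the tests, on axes that start at 0. *Gapdh*, *Aldoa*, *Pfkp* and *Mdh1* are lowest on average in sgZbtb1, and *Suclg2*, *Idh2*, *Fh1* and *Mdh2* are highest there.

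To separate sgZbtb1 from what gene-targeting sgRNAs share, its 3 libraries were set against the 9 of sgLmo2, sgCbfa2t2 and sgCbfa2t3, with sgCont left aside. Here 4 members (11.4%) were called, against 4.34% of all genes. *Mdh2* rose (2.86% of the members, against 1.46% of all genes), with a log2 fold change of 0.29 (SE 0.067, limma adjusted p = 0.00406). *Gapdh*, *Mdh1* and *Pfkp* fell (8.57%, against 2.87% of all genes), with log2 fold changes of -0.61 (SE 0.13, limma adjusted p = 0.00142), -0.41 (SE 0.094, limma adjusted p = 0.00289) and -0.48 (SE 0.12, limma adjusted p = 0.0128). *Fh1*, at 0.30 (SE 0.10, limma adjusted p = 0.0688), was called as higher too with median-of-ratios size factors (0.0439), edgeR (0.0416) and DESeq2 (0.0398). The same held without sgLmo2 replicate 2 (0.0471) and with the replicate block, given at the end. *Mdh2* and *Gapdh* were thus called in both comparisons, which share the sgZbtb1 libraries, whereas *Aldoa*, *Idh2* and *Suclg2* had adjusted p-values of 0.226, 0.477 and 0.32 here. *Gapdh* was called with any 1 of these 12 libraries left out, while the calls of *Mdh1* were lost without sgZbtb1 replicate 1 or 2 (adjusted p up to 0.0588), of *Pfkp* without replicate 1 or 3 (up to 0.114) and of *Mdh2* without replicate 3 (0.0621). Over all genes, 33.7% of the calls in this comparison were higher with the library total as the scale, 43.3% with median-of-ratios size factors and 48.5% with edgeR. The limma F-test across the 5 conditions called 5 members (14.3%, against 4.54% of all genes): *Mdh2* (adjusted p = 0.00381), *Fh1* (0.00727), *Gapdh* (0.0122), *Mdh1* (0.029) and *Pfkp* (0.0478).

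The other 3 sgRNAs gave no call among the members in limma, in comparisons that share the 3 sgCont libraries with that of sgZbtb1. Few genes were called there at all, 0.0173% of all genes in sgLmo2, 0.147% in sgCbfa2t2 and 0.537% in sgCbfa2t3. edgeR and DESeq2 also called 0 members in each of them. At an unadjusted p under 0.05, 4 members passed in sgLmo2 (11.4%, against 5.65% of all genes), 4 in sgCbfa2t2 (11.4%, against 9.56%) and 2 in sgCbfa2t3 (5.71%, against 10.6%), where sgZbtb1 had 14 (40.0%, against 17.6%). In sgLmo2 these were *Cs*, *Sdhd* and *Idh2*, with log2 fold changes of 0.31, 0.57 and 0.27, and *Fh1*, with -0.26. In sgCbfa2t2 they were *Sdhd*, *Idh2*, *Suclg2* and *Mdh1*, with 0.76, 0.31, 0.79 and 0.24, and in sgCbfa2t3 *Sdhb* and *Idh2*, with 0.23 and 0.22. All 10 of these differences were of TCA cycle members, and 9 were increases that did not pass the adjusted test. The median log2 fold change of the TCA cycle members was 0.10 in sgLmo2, 0.16 in sgCbfa2t2 and 0.12 in sgCbfa2t3, and that of the glycolysis members -0.016, 0.021 and -0.097. Means of the TCA cycle members were lowest in sgCont for 9 of the 17, and means of the glycolysis members lowest in sgZbtb1 for 12 of the 14 tested. The shares of all genes that were lowest in these conditions were not counted, so nothing particular to the members is read from this.

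**Figure D5:**
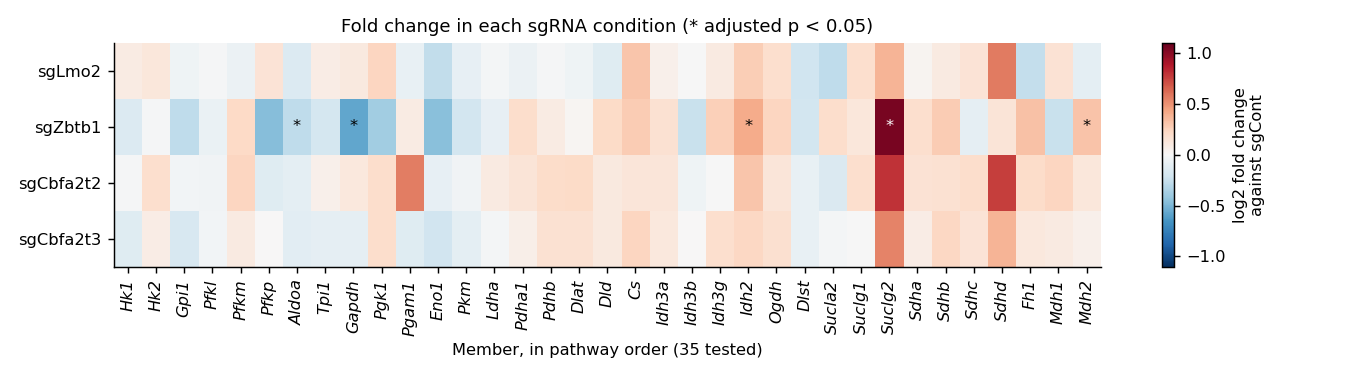
Log2 fold change of TPM + 1 against sgCont in the libraries labelled sgLmo2, sgZbtb1, sgCbfa2t2 and sgCbfa2t3 (rows) for the 35 members tested (columns, in pathway order), from blue (lower) to red (higher). Stars mark an adjusted p under 0.05, which only sgZbtb1 has, for 5 members. All rows share the 3 sgCont libraries.

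Around the enzymes, other genes of the pathway were taken from lists chosen by function. Of 21 genes for other isoforms and steps, 8 were tested and none was called in any of the 4 comparisons with sgCont by limma, where 1 passed an unadjusted p under 0.05 in sgZbtb1 and 0 in the others. Against the 4.79% of all genes called in sgZbtb1, the 1 or 2 calls in each of the lists that follow are few, and nothing is read from those counts about a list. Of 14 glucose, lactate and pyruvate transporters, 13 were tested and 1 fell in sgZbtb1. This was *Slc16a3*, a lactate exporter, which was between 19.1 and 39.7 TPM in sgZbtb1 and between 43.4 and 76.98 TPM in sgCont, with a log2 fold change of -0.94 (SE 0.23, limma adjusted p = 0.00683). Among 16 switches of the pathway, 11 were tested and 1 fell, *Txnip*, which restrains glucose uptake. It was between 112 and 119.8 TPM in sgZbtb1 and between 153 and 196 TPM in sgCont, with a log2 fold change of -0.60 (SE 0.13, limma adjusted p = 0.00126). *Pfkfb3*, which makes an activator of phosphofructokinase, went from 25.2 ± 4.51 to 38.3 ± 6.58 TPM (SD, n = 3 each) between sgCont and sgZbtb1 and was not called, at 0.59 (SE 0.23, limma adjusted p = 0.142).

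Among 29 feeder and branch enzymes, 26 were tested, of which 1 rose and 1 fell in sgZbtb1. *Tkt*, the transketolase of the pentose phosphate pathway, rose from 502 ± 28.6 to 635 ± 57.4 TPM (SD, n = 3 each), a log2 fold change of 0.34 (SE 0.096, limma adjusted p = 0.0246), and *Pgm1*, a phosphoglucomutase, fell from 108 ± 3.21 to 74.9 ± 7.64 TPM (SD, n = 3 each), a log2 fold change of -0.53 (SE 0.14, limma adjusted p = 0.0132). Of 21 transcription factors and regulators of the pathway, 18 were tested and none was called in any of the comparisons with sgCont. The lowest unadjusted p in sgZbtb1 was that of *Myc*, with a log2 fold change of 0.58 (SE 0.22, limma adjusted p = 0.128). Of 16 hypoxia targets outside the pathway, 14 were tested and 1, the mitophagy gene *Bnip3*, fell in sgZbtb1, from 88.96 ± 20.04 to 50.1 ± 8.14 TPM (SD, n = 3 each), a log2 fold change of -0.81 (SE 0.18, limma adjusted p = 0.00209). By sign alone, 11 of the 14 were lower in sgZbtb1, with a median of -0.23, where 46.7% of all genes were higher. In sgCbfa2t3 11 were lower too (median -0.12), in sgCbfa2t2 9 and in sgLmo2 6. None of these lists had a call in the other 3 conditions. Against the 9 libraries of those conditions, *Txnip*, *Tkt* and *Bnip3* were called too, with log2 fold changes of -0.56, 0.31 and -0.67, while *Slc16a3* was not, at -0.56 (SE 0.19, limma adjusted p = 0.0788), nor was *Pgm1*, at -0.27 (SE 0.11, limma adjusted p = 0.204). *Pgm1* was also low in sgCbfa2t3, at a mean of 77.7 TPM. Against the same 9 libraries *Pcx*, the pyruvate carboxylase that refills the TCA cycle, and *Ddit4*, a stress-induced inhibitor of mTORC1, fell. *Pcx* went from 9.43 ± 4.67 to 2.47 ± 1.21 TPM (SD, n = 9 and 3), a log2 fold change of -1.54 (SE 0.37, limma adjusted p = 0.00489), and *Ddit4* from 56.8 ± 12.5 to 37.1 ± 2.11 TPM, a log2 fold change of -0.57 (SE 0.16, limma adjusted p = 0.0269).

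Binding of Zbtb1 and Cbfa2t3 was read from the peak lists, which hold 5898 and 6077 peaks on mm10 and give no replicate values. Zbtb1 peaks with the centre within 1 kb of the start site were annotated to 4 of the 35 members (11.4%), against 18.5% of all genes tested. They were at *Pkm* (chr9:59656327-59656697, just after the start site, score 123.3), *Suclg1* (chr6:73248508-73248878, exon, score 38.0), *Dlat* (chr9:50659194-50659564, exon, score 15.6) and *Eno1* (chr4:150236729-150237099, promoter, score 15, the lowest in the list). The *Pkm* peak scored above 94.0% of the list. Cbfa2t3 peaks lay there for 2 members (5.71%, against 6.53% of all genes), *Pkm* (chr9:59656074-59656452, promoter, score 42.3) and *Gpi1* (chr7:34230228-34230606, promoter, score 38.8). The peaks of both factors at *Pkm* overlapped by 126 bp. When peaks at any distance were counted by their nearest gene, 6 members had one of Zbtb1 (17.1%, against 27.3% of all genes) and 6 one of Cbfa2t3 (17.1%, against 20.9%). Both factors had a peak 28 kb upstream of *Idh2* in intergenic sequence, at chr7:80143342-80143712 for Zbtb1 (score 17.5) and chr7:80143420-80143798 for Cbfa2t3 (score 85.6). A Cbfa2t3 peak that the list assigns to the neighbouring *Styxl1* (chr5:135778302-135778680, score 20.9) lay over the promoter of *Mdh2*, and a Zbtb1 peak without a gene name (chr11:6292008-6292378, score 26.5) lay over that of *Ogdh*. Of the 5 members called in sgZbtb1, none had a Zbtb1 peak within 1 kb by the list, and *Idh2* had the distal one. With 18.5% of all genes having such a near peak, 5 members are too few to read this count.

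The sequences below show the places with a Cbfa2t3 peak at *Pkm*, *Gpi1* and *Mdh2*, the distal place near *Idh2* shared by both factors, and the promoters of the other members called in sgZbtb1. Each promoter is the 200 bases before a GENCODE vM21 start site, read 5′ to 3′ on the gene's strand from the RefSeq assembly GRCm38.p6, and the *Idh2* distal site is the 293 bases shared by both peaks, on the plus strand. Capitals mark, on either strand, the E-box CACGTG, its part ACGTG, the related GCGTG, the Runx core TGTGGT, the GC box GGGCGG, the ETS site CCGGAAG or the Nrf1 half-site GCATGCG, and neighbouring matches may run together.
Pkm promoter, chr9:59656168-59656367, plus strand, within the Cbfa2t3 peak, with its last 41 bases also in the Zbtb1 peak: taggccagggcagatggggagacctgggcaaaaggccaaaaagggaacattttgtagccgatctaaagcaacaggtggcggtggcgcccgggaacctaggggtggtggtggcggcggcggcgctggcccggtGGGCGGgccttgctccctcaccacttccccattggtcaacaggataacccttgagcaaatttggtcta
Gpi1 promoter, chr7:34230337-34230536, minus strand, within the Cbfa2t3 peak: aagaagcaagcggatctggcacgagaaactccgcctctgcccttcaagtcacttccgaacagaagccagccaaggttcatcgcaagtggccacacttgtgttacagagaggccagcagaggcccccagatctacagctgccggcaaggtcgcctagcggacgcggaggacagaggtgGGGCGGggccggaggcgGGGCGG
Mdh2 promoter, chr5:135778280-135778479, plus strand: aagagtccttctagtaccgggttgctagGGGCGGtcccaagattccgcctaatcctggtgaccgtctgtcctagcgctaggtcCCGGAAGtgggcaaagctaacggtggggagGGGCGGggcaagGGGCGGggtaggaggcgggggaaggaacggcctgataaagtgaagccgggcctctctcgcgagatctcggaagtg
Idh2 distal site, chr7:80143420-80143712, plus strand: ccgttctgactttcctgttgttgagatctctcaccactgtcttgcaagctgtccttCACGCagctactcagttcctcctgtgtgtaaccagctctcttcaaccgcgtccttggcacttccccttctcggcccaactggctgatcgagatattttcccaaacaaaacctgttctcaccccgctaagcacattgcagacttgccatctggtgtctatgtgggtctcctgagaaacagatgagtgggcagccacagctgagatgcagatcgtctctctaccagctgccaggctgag
Idh2 promoter, chr7:80115393-80115592, minus strand: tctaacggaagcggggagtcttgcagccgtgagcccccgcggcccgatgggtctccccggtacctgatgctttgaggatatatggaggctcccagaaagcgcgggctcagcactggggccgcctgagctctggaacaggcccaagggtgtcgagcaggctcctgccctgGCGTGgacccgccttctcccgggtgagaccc
Suclg2 promoter, chr6:95718801-95719000, minus strand: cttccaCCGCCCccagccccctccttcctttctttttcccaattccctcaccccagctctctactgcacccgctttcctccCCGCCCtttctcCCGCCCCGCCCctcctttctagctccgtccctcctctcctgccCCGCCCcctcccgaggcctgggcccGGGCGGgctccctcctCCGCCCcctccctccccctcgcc
Aldoa promoter, chr7:126799255-126799454, minus strand: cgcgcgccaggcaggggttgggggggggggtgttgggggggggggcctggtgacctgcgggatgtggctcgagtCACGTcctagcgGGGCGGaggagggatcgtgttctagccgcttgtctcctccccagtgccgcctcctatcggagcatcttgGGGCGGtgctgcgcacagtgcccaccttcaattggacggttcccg
Gapdh promoter, chr6:125165774-125165973, minus strand: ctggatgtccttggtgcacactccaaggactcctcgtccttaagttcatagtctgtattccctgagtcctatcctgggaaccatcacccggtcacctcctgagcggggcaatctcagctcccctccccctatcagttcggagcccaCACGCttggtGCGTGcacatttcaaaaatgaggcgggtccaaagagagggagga

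GGGCGG occurred in the printed promoters of *Pkm*, *Gpi1*, *Mdh2*, *Suclg2* and *Aldoa*, GCGTG in those of *Gapdh* and *Idh2* and in the distal site, and TGTGGT in none of the sequences shown. For a wider count, RefSeq promoter windows on GRCm38.p6 from 250 bases before to 50 after the start site were searched, 51 windows for 35 of the 37 members, 8 of which have several. ACGTG, the core of the hypoxia response element and a part of CACGTG, was found in 43.1% of the members' windows, against 19.6% of all 32851 windows and 26.4% of the windows of genes tested. It was found in 44.4% of the glycolysis windows and 41.7% of the others. CACGTG, the E-box of Myc and related factors, was found in 9.80%, against 7.15% of all windows. GCGTG was found in 56.9% against 32.4%, GGGCGG in 58.8% against 35.7%, CCGGAAG in 11.8% against 8.86%, GCATGCG in 9.80% against 3.58%, and TGTGGT in 11.8% against 16.8% of all windows. In windows of genes tested, the GC box was found in 63.8%, the ETS site in 19.5%, the E-box in 10.4%, the Runx core in 12.7%, GCGTG in 51.9% and the Nrf1 half-site in 6.78%. The members' shares of the first 4 of these lay under those of genes tested. Windows of a gene overlap in part, and a match is a run of letters and not a site in use.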

How the data were processed

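QuantSeq 3′ mRNA libraries (15) and the peak lists of Zbtb1 and Cbfa2t3 were used. For QuantSeq, the authors trimmed reads with fastp, mapped them to mm10 with STAR and scaled each library to a fixed total. The deposited values, called TPM, are CPM, and whole reads were recovered for 100% of them (within 0.1 read). In ChIP-seq, Bowtie 1.1.1 and HOMER were used by the authors, who deposited for each factor the peaks common to 2 replicates, with a peak score of at least 15 and a signed distance to the nearest start site. Samples were grouped by their labels. A row without an identifier (1 read in each library) was left out. Replicates differed beyond sampling noise.

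Genes with a mean above 1 TPM were tested with limma 3.58.1 (R 4.3.3, trend) on log2(TPM + 1), with Benjamini-Hochberg adjustment. Alternatives were edgeR 4.0.16 and DESeq2 1.42.0 on recovered reads, size factors by median of ratios, the replicate block, a mean above 10 TPM, every gene above 0, a pseudocount of 0.1, the 6 libraries alone, the 9 other gene-targeting libraries, the DEG thresholds of the study (unadjusted p under 0.05, absolute log2 fold change above 1, mean above 10 TPM), and each library left out. For single members an exact permutation test of 3 libraries against 3 cannot give a p under 0.1. Fits were tested on simulated data. 3′ ends were aligned with blastn 2.17.0, and windows overlapped with bedtools 2.31.1. The members and lists were chosen with earlier results of these data known. Values by library are given for members called in any test, the 3 highest and 3 lowest log2 fold changes per comparison with sgCont (mean of at least 10 TPM), the 3 highest and 3 lowest means, and paralogs (23 in all), and genes of other lists were named at an adjusted p under 0.05. *Pfkfb3* and *Myc* were named after their values were seen.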

Additional observations from a re-analysis of the deposited data

How the results depend on the processing

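The counts of members called rest on few genes near the threshold. In sgZbtb1 against sgCont, where 5 were called, the count was 2 with all genes above 0 (*Idh2* and *Mdh2*) and 1 with the DEG thresholds of the study (*Suclg2*), and 2 to 4 with a library left out. All genes called moved as well, from 554 to 330 with all genes above 0, 192 with the DEG thresholds and 306 to 459 with a library left out. The count of members fell to 2 without sgCont replicate 1, sgCont replicate 2, sgZbtb1 replicate 2 or sgZbtb1 replicate 3, and to 3 without sgCont replicate 3. Across the 5 conditions (5 members) it was 1 with all genes above 0, 2 with DESeq2 and 2 to 7 with a library left out (2 without sgZbtb1 replicate 2, and 3 without sgZbtb1 replicate 3, sgLmo2 replicate 2 or sgCbfa2t2 replicate 2), and in sgZbtb1 against the 9 other gene-targeting libraries (4 members) it was 2 without sgZbtb1 replicate 3 and 2 to 5 over the libraries left out. All genes called across the 5 conditions went from 525 to 253 with all genes above 0 and to 543 with DESeq2. They were 364 without sgZbtb1 replicate 2 and 503 without sgCont replicate 1. Against the 9 others, all genes called went from 501 to 301 without sgZbtb1 replicate 3. In sgLmo2 the count of members was 0 with each library left out but 2 against the 9 other libraries (*Fh1* and *Mdh2*, both lower, where 201 genes in all were called against 2), in sgCbfa2t2 0 to 1 with a library left out (*Sdhd*, without sgCont replicate 1) and in sgCbfa2t3 0 throughout. *Idh2* changed sign against the 9 other libraries, to -0.042 in sgLmo2 and -0.10 in sgCbfa2t3. *Mdh2* kept its call in sgZbtb1 against sgCont in 12 of 15 alternatives (adjusted p 0.00123 to 0.0816), *Idh2* in 11, *Suclg2* in 9, *Gapdh* in 8 and *Aldoa* in 7. Members with a Zbtb1 peak within 1 kb numbered 4, and 2 at a score of at least 30 (5.71%, against 9.79% of all genes). Members with a Cbfa2t3 peak numbered 2, also 2 at a score of at least 30 (5.71%, against 2.71%), and 6 at any distance (17.1%, against 20.9%). Over single members, 556 results kept their direction and side of the threshold under an alternative, 32 were no longer called, 17 became called and 2 changed sign. The causes were not tested.

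With the replicate block the counts were 7 in sgZbtb1 (with *Gpi1* and *Pfkp* gained, adjusted p = 0.0385 and 0.0389), 0 in each of the other comparisons with sgCont, 6 across the 5 conditions and 5 against the 9 other libraries (with *Fh1* gained, adjusted p = 0.0483), while the number of all genes called went, in sgZbtb1, across the 5 conditions and against the 9 others, from 554 to 709, from 525 to 718 and from 501 to 618. Deviations of libraries with the same replicate number correlated at -0.0072 to 0.066 over 30 pairs, with a mean of 0.028. For 60 pairs with different numbers they correlated at -0.061 to 0.032, with a mean of -0.014. Of 15 libraries, 14 correlated best with their own number. The likeness by number was thus weak but present, and the main fit leaves the block out. The median standard error of a member's log2 fold change was 0.14, which limits what 3 libraries of this depth can show.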
